A study of Triticum aestivum with 45 samples.

Results

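The 6 libraries described here come from spikelets of the Canadian Hard Red Spring wheat cultivar Superb (Triticum aestivum, a hexaploid with A, B and D subgenomes), 8 h after spikes at anthesis were sprayed with water or with 100 µM methyl jasmonate (MeJA). They were chosen by their genotype, treatment and time labels, 3 libraries per treatment, and are 6 of the 45 libraries of the series. The other libraries hold Superb before spraying (0 h) and 8 h after 100 µM salicylic acid (SA) or ethephon, a precursor of ethylene, and the same 5 conditions in 2 doubled haploid lines, GS-1-EM0040 (DH1, from CIMMYT11 and Superb) and GS-1-EM0168 (DH2, from CM82036 and Superb), for which Superb was the recurrent parent. Spikelets of each sprayed group came from 5 plants, per the design text, and no label says how the plants were divided over the 3 replicates. The p-values therefore measure the spread between libraries, which may be technical.

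MeJA is the volatile methyl ester of jasmonic acid, a plant hormone of wounding, defence and flower development. In Arabidopsis, its active form, a conjugate with isoleucine, brings JAZ repressor proteins to the receptor coronatine-insensitive, and their breakdown frees MYC transcription factors to switch on target genes. Cereal flowers both make jasmonate and respond to it.

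Genes are given by identifier, since neither the count table nor the reference table used here pairs these identifiers with names (0 matched). The spikelet label could not be checked against marker genes for the same reason. The genotype label could be checked: 31 genes with at least 5 CPM (counts scaled to library size and between libraries) in DH1 at 0 h and at most 5% of that level in both other genotypes stood at 1.32% to 1.89% of their DH1 water level in the 6 libraries, and 33 genes chosen likewise for DH2 stood at 0.775% to 1.10% of their DH2 water level. Totals ran from 6446374 counts in MeJA replicate 3 to 12991043 in MeJA replicate 2. In bulk spikelets, fewer cells of a type and less RNA per cell cannot be told apart.

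The first 4 genes described are the extremes in fold change and in CPM difference among 6548 calls that had a mean log2 CPM of 1 or more and stood when each library was left out. MeJA took one transcript from no detectable counts to a prominent level. TraesCS4B01G237500, on chromosome 4B, had 0 counts in all 3 water libraries, which allows up to 0.103 CPM over the group. After MeJA it stood at 114, 88.4 and 106 CPM in replicates 1, 2 and 3. Their mean of 103 CPM was 999 times the 0.103 CPM allowed after water. The rise had an adjusted p of 9.34e-11 in edgeR's quasi-likelihood test. Its replicate 1 value was the highest of the 3. It stood at 0, 3.15 and 0.0637 CPM before spraying, at 0.251 CPM or below after SA, and at 24.5, 0.406 and 0 CPM after ethephon.

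The largest gain in CPM among these calls belonged to TraesCS5D01G388800 on 5D. It went from 8.92, 4.69 and 16.8 CPM after water to 1220, 2346 and 2227 CPM after MeJA, a log2 fold change of 7.58 (SE 1.02, edgeR adjusted p = 5.51e-07). Replicate 1 was the lowest of the MeJA libraries and lay far above the highest water library. The gene stood between 7.64 and 12.6 CPM after SA and between 9.12 and 33.9 CPM before spraying, while ethephon replicates 1, 2 and 3 held 508.8, 15.8 and 8.67 CPM.

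Among the lowered genes of these 6548 calls, TraesCS2D01G422700 on 2D had the lowest fold change. It stood at 88.4, 105 and 127 CPM after water and at 5.13, 2.39 and 2.47 CPM after MeJA, a log2 fold change of -4.97 (SE 0.59, edgeR adjusted p = 4.87e-08). SA and ethephon left it between 68.9 and 84.6 CPM, and it had been at 46.7, 57.1 and 11.1 CPM before spraying.

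The largest loss in CPM among these calls was that of TraesCS5D01G169600 on 5D, which held 1349, 1257 and 2053 CPM after water and 512, 309 and 241 CPM after MeJA (log2 fold change -2.13, SE 0.33, edgeR adjusted p = 5.41e-06). It was higher still before spraying, at 3028, 3003 and 1894 CPM. For all 4 genes, the 3 MeJA libraries lay on one side of the 3 water libraries.

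**Figure D1:**
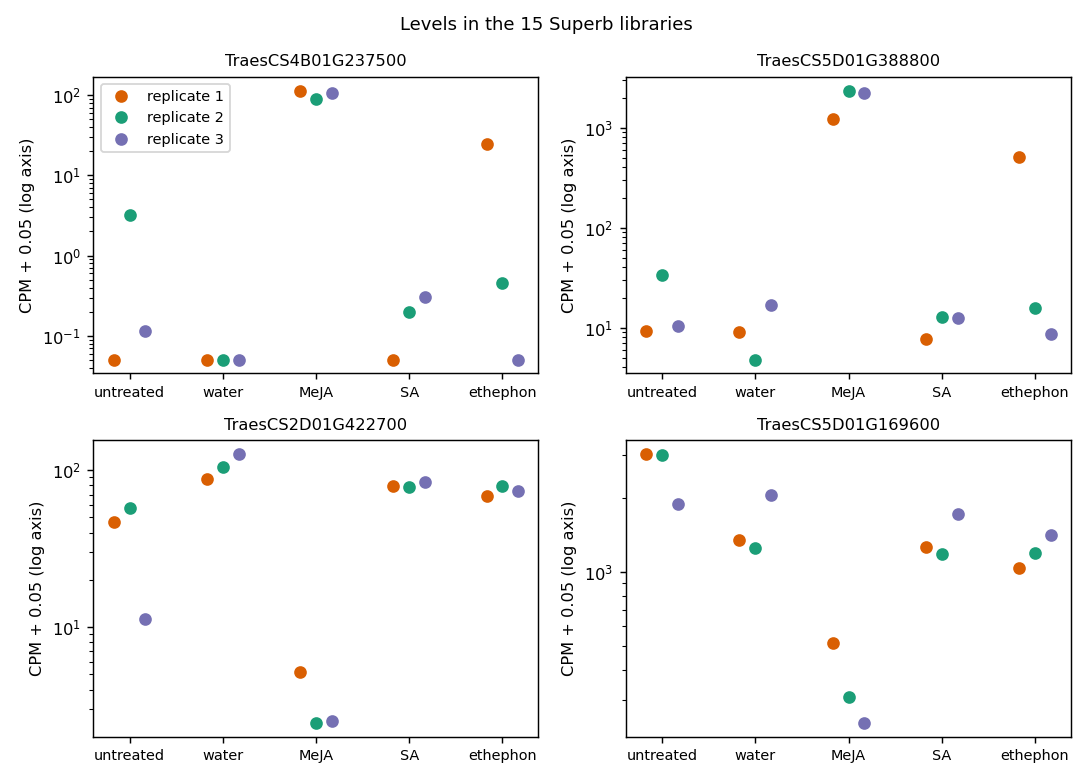
Levels (CPM plus 0.05, log axis) of 4 genes in the 15 Superb libraries, by condition and coloured by replicate number. The upper pair rose after MeJA and the lower pair fell. Ethephon replicate 1 is the only library outside MeJA in which both genes of the upper pair are far above the water level. TraesCS4B01G237500 alone also stood at 3.15 CPM in untreated replicate 2.

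Of 63091 genes tested, 7884 rose and 6047 fell after MeJA at an edgeR adjusted p under 0.05, which is 12.5% and 9.58% of the tested genes. The genes that rose had a median log2 fold change of 1.20 with an upper quartile of 2.13, and those that fell a median of -0.91 with a lower quartile of -1.45. At least 4-fold changes were found for 2165 genes that rose (3.43%) and 671 that fell (1.06%), at least 16-fold for 631 and 51, and at least 64-fold for 254 and 12. All 3 MeJA libraries lay on one side of all 3 water libraries for 89.1% of the raised and 95.4% of the lowered genes, and for 34.3% of all tested genes. The balance of directions rests on the scaling: with library totals alone, 5750 genes rose and 10088 fell, and the median of all genes stood at -0.16 on the log2 scale against 0 with TMM.

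The calls were unequally spread over levels after water. Among 9930 genes under 1 CPM after water, 14.9% rose and 1.80% fell, and 11.4% rose at least 4-fold. Among 31425 genes from 1 to 10 CPM, 9.75% rose and 8.88% fell, and from 10 to 100 CPM 15.6% rose and 13.7% fell. Above 100 CPM the order turned: of 1294 abundant genes, 22.2% fell and 12.4% rose. The median log2 fold change of the raised genes was 3.07 in the lowest class and 0.74 in the highest, and that of the lowered genes -2.37 and -1.05. A low count limits the fall that can be called. Genes well below this level after water passed the filter on low counts through another group that was higher, and the classes were cut on water values that also enter the fold change. The split of directions in the lowest class is therefore partly set by the selection.

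From water to MeJA, the summed change in mean CPM was 206915 over the raised genes and -82814 over the lowered genes. With TMM factors, the CPM of all genes do not add up to the same total in each library. These sums are therefore not shares of the counts. The gain of the raised genes was spread over many genes. The 10 with the largest gains held 6.17% of it and the first 100 held 25.9%, and 419 genes made up 50% of it. These genes were called on the same libraries, so the sums and percentages only describe the calls.

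A set chosen in DH1 and DH2 gave a measure of the response in each library. It held 4255 genes that MeJA raised at least 2-fold in both DH1 and DH2 (6.74% of the tested genes), and its share of the counts was 4.69%, 4.17% and 5.18% in the water libraries of Superb and 13.3%, 20.1% and 22.0% in its MeJA libraries. The groups did not overlap, and the means of 4.68 ± 0.51% and 18.5 ± 4.57% (SD, n = 3) had an exact two-sided permutation p of 0.1, the smallest that 3 against 3 libraries can give. Replicate 1 lay apart from the other MeJA libraries, below both. The set stood at 4.48% to 5.36% before spraying and at 4.49% to 5.08% after SA. After ethephon it stood at 8.08%, 4.93% and 4.75%.

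The counterpart of 1579 genes that MeJA lowered at least 2-fold in both lines (2.5% of the tested genes) held 4.51%, 4.50% and 4.67% of the counts after water and 1.69%, 1.05% and 0.985% after MeJA (exact permutation p = 0.1 again). It had held 7.12%, 7.23% and 5.65% before spraying, so the MeJA libraries lay below both other states. Superb called 3803 of the raised set higher and 0 lower, and 1379 of the lowered set lower and 0 higher. These are 89.4% and 87.3% of the sets, against 12.5% higher and 9.58% lower among all tested genes. The Wilson 95% intervals of the library shares are at most 0.064 percentage points wide and cover counting error only.

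**Figure D2:**
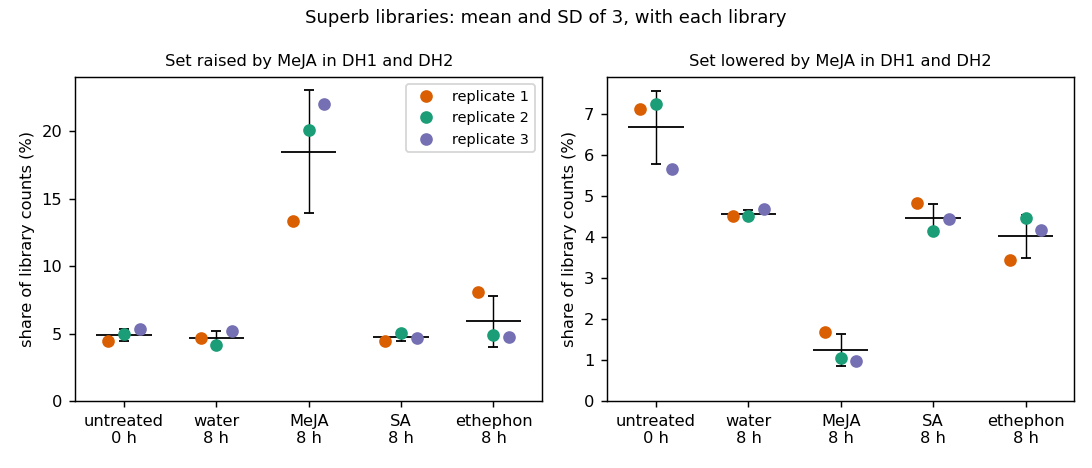
Share of library counts (%) in the 15 Superb libraries for genes raised (left) or lowered (right) at least 2-fold by MeJA in both DH1 and DH2, with points for libraries and bars for the mean and SD of 3. MeJA libraries hold 13.3% to 22.0% of their counts in the raised set, against at most 5.36% at 0 h, after water and after SA, and 8.08% in ethephon replicate 1.

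Genes that were silent after water formed a small group. Of 343 tested genes with 0 counts in the 3 water libraries, 131 were called higher after MeJA (12.5% of all tested genes were), 62 of them with at least 1 CPM in every MeJA library and 12 with at least 5 CPM in every one. Genes at 0 after water were tested only because another group lifted them past the filter, so this share is partly set by the selection. All 12 had counts before spraying in at least 1 library, so none was silent in every Superb library outside MeJA. In the other direction, 17 genes called lower had 0 counts in the 3 MeJA libraries, but their median level after water was 0.738 CPM and the highest 1.52 CPM. None of these 17 had 1 CPM or more in every water library.

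By subgenome, 12.2%, 12.5% and 12.9% of the tested genes of A, B and D were raised and 9.70%, 9.25% and 9.80% lowered. Among chromosomes the raised share ran from 9.49% on 6A to 14.3% on 2D, and the lowered share from 7.75% on 5B to 10.4% on 6A. Along the gene order of a chromosome, read from the identifiers, the first and last 10% of positions held fewer raised genes than the middle 20% (11.4% against 13.4%) but more that rose at least 4-fold (4.27% against 2.97%) and more lowered ones (11.1% against 9.11%). The outer share was the higher one on 7, 13 and 18 of 21 chromosomes in that order. The 2 ends were unlike: at least 4-fold induction was seen for 5.30% of the genes in the first 10% and 3.26% in the last.

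Raised genes lay next to each other more often than the tested genes as a whole were raised. The next tested gene after a raised one was raised in 20.9% of cases, against 12.5% of all tested genes on named chromosomes. For induction of at least 4-fold it was 19.0% against 3.42%, and for lowered genes 12.8% against 9.58%. Neighbouring copies of a wheat gene can share reads, and how the authors counted such reads is not given in the sources used here.

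Runs of neighbours, picked by their calls and described only, show the scale of this. On 2B, 8 tested genes in a row within the first 10% of the gene order rose at least 4-fold, with a median log2 fold change of 7.38. Their summed level was 1.05 to 2.78 CPM after water and 92.0, 361 and 498 CPM in MeJA replicates 1, 2 and 3. On 1A, a run of 7 already expressed genes went from 196 to 291 CPM in sum after water to 1176, 3068 and 3698 CPM, and on 1D a run of 6 went from 74.7 to 153 CPM to 1226, 2252 and 2503 CPM. On 5B, a run of 7 nearly silent genes, at most 0.479 CPM in sum after water, reached 31.1, 59.1 and 47.7 CPM. Replicate 1 was the lowest MeJA library in each. Runs of 5 or more raised genes numbered 37 with 214 genes. Lowered runs of that length numbered 3 with 17 genes. The longest of these were a pair of 6 genes each on 2B. One fell from 553 to 904 CPM in sum to 187, 96.4 and 96.0 CPM, and the other from 93.7 to 107 CPM to 54.8, 39.8 and 37.0 CPM.

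MeJA replicate 1 was set apart because its weaker response was already known, so its comparison with replicates 2 and 3 is a description. Against water, replicates 2 and 3 gave 8861 genes higher (14% of those tested) and 6371 lower (10.1%) in edgeR's quasi-likelihood test. Replicate 1 alone, assumed to vary like the other groups, gave 2262 higher (3.59%) and 1242 lower (1.97%). Of these, 2125 and 1089 were also called for replicates 2 and 3 in the same direction, against the same water libraries. With library totals alone, 34.7% of the calls for replicates 2 and 3 were higher against 58.2% with TMM, and without MeJA replicate 3 the calls of this pair numbered 9606. A single library has less power than a pair, which lowers its count as well.

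Replicate 1 fell further short of the others over the raised genes than over the lowered ones. Over the 4255 genes raised in the lines, the median log2 difference from water, on log2(CPM + 0.5), was 1.06 in replicate 1 and 1.76 and 1.93 in replicates 2 and 3. Replicate 1 was the lowest of the 3 for 83.6% of them. In summed CPM it gained 47.4% of what replicates 2 and 3 gained on average. Over the 1579 genes lowered in the lines, the medians were -1.15, -1.51 and -1.54, and replicate 1 lost 82.3% of what the others lost. A loss in CPM cannot exceed the water level, while a gain has no such limit, so these percentages are not alike. On the log2 scale the contrast was smaller. The median ratio of replicate 1 to the mean of replicates 2 and 3 was 60.5% for the raised and 74.4% for the lowered genes. In summed CPM the gained percentage was 46.8% for genes that the lines raised 2- to 4-fold and 55.8% for those raised over 64-fold, but the median over single genes went the other way, from 46.5% to 33.2%. Over all tested genes the median log2 difference from water was 0.012, -0.0029 and -0.018 in MeJA replicates 1, 2 and 3.

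**Figure D3:**
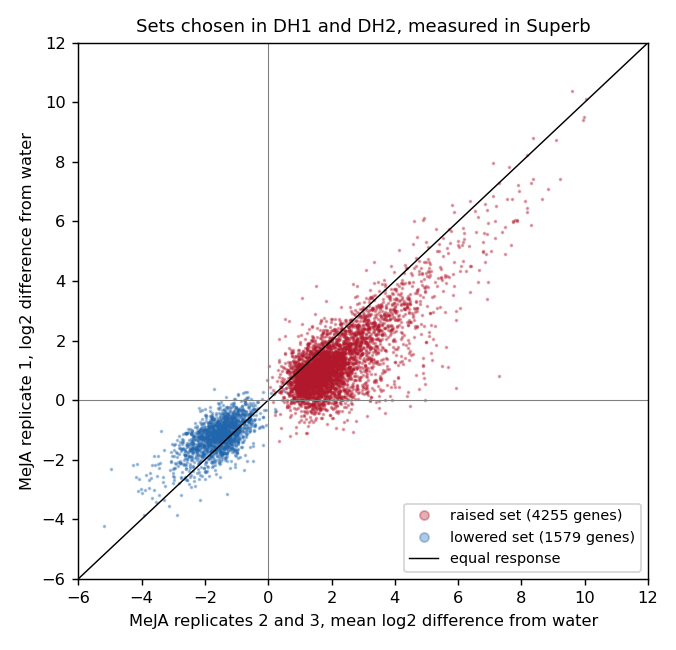
Log2 difference from the mean of the water libraries in MeJA replicate 1 (vertical) and in replicates 2 and 3 on average (horizontal), one point per gene of the sets chosen in DH1 and DH2. Most raised genes lie below the line of equal response, with medians of 1.06 in replicate 1 and of 1.76 and 1.93 in replicates 2 and 3.

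Replicate 1 was not weaker for every gene. Replicates 2 and 3 raised 2598 genes at least 4-fold (4.12% of those tested). In replicate 1, 2242 of these (86.3%) lay above every water library, against 31.5% of all tested genes. Of the 2598 genes, 311 lay within the range of the water libraries in replicate 1, while 131 were at least as high in replicate 1 as in both others. TraesCS1A01G238700 on 1A is the most abundant of the raised genes within the water range in replicate 1. It stood at 40.1, 36.5 and 52.8 CPM after water, and at 42.9, 194 and 353 CPM in MeJA replicates 1, 2 and 3. Its log2 fold change was 2.66 (SE 0.46, edgeR adjusted p = 3.17e-05) for replicates 2 and 3. Among lowered genes of this kind, TraesCS5A01G057500 on 5A stood at 39.0, 48.5 and 16.7 CPM after water and at 26.4, 11.1 and 3.87 CPM after MeJA. It fell for replicates 2 and 3 (log2 fold change -2.12, SE 0.64, edgeR adjusted p = 0.0135). Over all 3 MeJA libraries the value of -1.29 (SE 0.55, edgeR adjusted p = 0.0958) did not pass. The call for replicates 2 and 3 was lost without MeJA replicate 3 (adjusted p = 0.179) and without water replicate 2 (adjusted p = 0.0571).

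The libraries of the lines, which entered the filter and the shared fit but not the comparison that chose these genes, were then read by replicate number. The 311 genes, with a median of 0.604 CPM after water, had median log2 differences from water of 0.11, 1.86 and 2.24 in MeJA replicates 1, 2 and 3 of Superb. In DH2 the medians were 0.03, 1.82 and 2.29, and in DH1 0.97, 2.33 and 1.90. Replicate 1 was the lowest MeJA library for 96.8% of them in DH2 and 83.3% in DH1, against 87.2% and 79.8% of all 2598 genes. The 131 genes at full strength in replicate 1 of Superb had a median of 0.544 CPM after water. They were also highest in replicate 1 of DH2 for 63.4%, with medians of 2.59, 2.28 and 2.20, against 6.70% of all 2598 genes. In DH1 they were highest in replicate 1 for 20.6% and lowest for 56.5%, against 3.73% and 79.8% of all 2598 genes. TraesCS1A01G238700 itself held 49.5, 310 and 448 CPM in the MeJA libraries of DH2 and 54.2, 227 and 213 CPM in those of DH1, with 30.6 to 61.4 CPM after water in the 2 lines. Lowered genes gave another picture in DH1. Replicates 2 and 3 of Superb lowered 65 genes at least 4-fold that replicate 1 left within the water range. Their median level was 0.960 CPM after water, which limits the size of a fall on log2(CPM + 0.5). The median log2 differences of these 65 genes were -0.36, -0.70 and -0.79 in DH2 and -0.64, -0.77 and -0.64 in DH1. Replicate 1 was the least lowered for 69.2% of them in DH2 and 44.6% in DH1. Over all 983 genes lowered at least 4-fold it was 70.5% and 47.7%, so the 65 genes did not stand out. The labels do not say what libraries with the same number share.

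**Figure D4:**
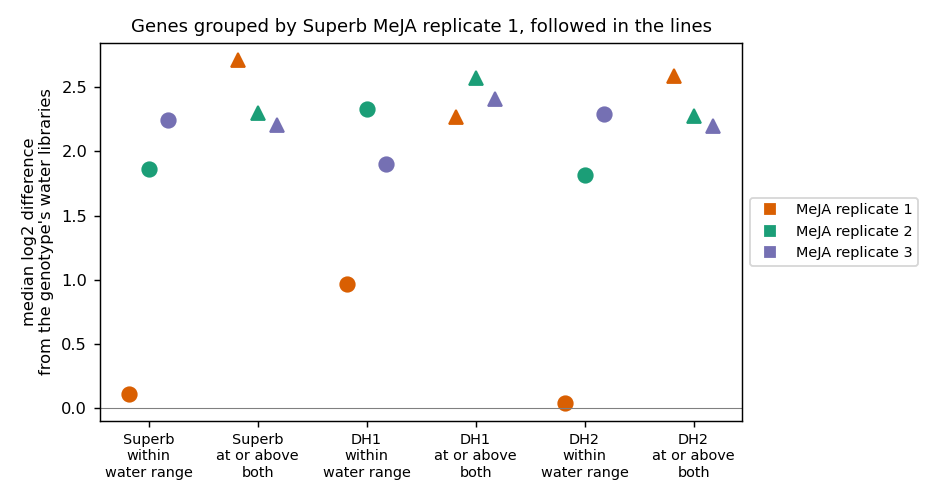
Median log2 difference from the genotype's own water libraries in each MeJA library, for the 311 genes that replicates 2 and 3 of Superb raised at least 4-fold and replicate 1 left within the water range (circles) and the 131 genes at least as high in replicate 1 (triangles). The circles of replicate 1 lie at 0.11 in Superb, 0.97 in DH1 and 0.03 in DH2.

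The response of Superb was then set against that of each line, with the difference between the 2 responses as the tested quantity. Against DH1, edgeR called 0 of 63091 genes (0%). At an unadjusted p under 0.05, 962 genes had the more positive and 1246 the more negative response in Superb. Together they are a smaller share of the 63091 genes than the 0.05 that would pass with no difference. They are therefore no sign of further differences. DESeq2, run for these differences after the data had been seen, called 11. In genes chosen by DH2 (4884 raised at least 2-fold), the median log2 fold change was 1.79 in Superb and 2.06 in DH1. In genes chosen by DH1 (6048), it was 1.57 in Superb and 1.57 in DH2. The same medians for lowered genes were -1.42 in Superb and -1.40 in DH1, and -1.35 in Superb and -1.15 in DH2. Of the 7884 genes raised in Superb, 631 were called in neither line, and of the 6047 lowered genes 1308. These counts do not show that the genotypes differ, since a call in 1 genotype and none in another is no test of their difference. The test of the difference from DH1 called 0 of all tested genes, so it cannot single these out.

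Against DH2, 7 genes differed in edgeR's test (0.0111%), 4 with the more positive (0.00634%) and 3 with the more negative response in Superb (0.00476%). DESeq2 called 17, among them all 7. TraesCS1A01G278800 on 1A had the most positive difference. It went from 29.6, 30.0 and 34.1 CPM after water to 203, 246 and 277 CPM after MeJA in Superb, and from 30.3, 35.6 and 20.7 to 169, 244 and 244 CPM in DH1. In DH2 it was nearly absent, at 3.58, 0 and 0.105 CPM after water and 0.185, 0.160 and 0.122 CPM after MeJA. The difference in log2 fold change was 5.89 (SE 1.11, edgeR adjusted p = 0.0419). Its size rests on the 61 counts of DH2 after water, nearly all in replicate 1, and the call was lost without MeJA replicates 2 or 3 or any water library of Superb (adjusted p between 0.0589 and 0.12).

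TraesCS3B01G353800 on 3B moved in opposite directions. It fell in Superb from 9.30, 7.96 and 7.78 CPM to 4.12, 5.55 and 3.35 CPM (log2 fold change -0.90, SE 0.21, adjusted p = 0.00121) and rose in DH2 from 1.70, 1.77 and 1.37 CPM to 3.14, 4.31 and 3.18 CPM (1.16, SE 0.24, adjusted p = 0.000323). The difference was -2.07 (SE 0.31, edgeR adjusted p = 0.0022). It fell in DH1 as well, from 4.10 ± 0.615 to 2.60 ± 0.233 CPM (SD, n = 3, edgeR adjusted p = 0.0294). The water and MeJA libraries overlapped in neither Superb nor DH2. After MeJA, 3.35 to 5.55 CPM in Superb overlapped with 3.14 to 4.31 CPM in DH2.

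The lowest adjusted p of the 7, 5.61e-05, was shared by a pair named here after their values were seen. TraesCS5A01G547700 on 5A rose from 48.6 to 488 CPM on average in Superb and from 47.6 to 444 CPM in DH1, and went from 29.5 to 36.1 CPM in DH2 (difference 3.04, SE 0.38). TraesCS5B01G515500 on 5B rose from 85.8 to 344 CPM in DH2, and stood at 101 and 122 CPM in Superb after water and MeJA (difference -1.74, SE 0.22). In Superb its own change had an adjusted p of 0.235. Without MeJA replicate 2 or 3 or any one water library of Superb, 4 of the 7 remained called, and 4 genes were called in all without MeJA replicate 3 or any one water library.

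**Figure D5:**
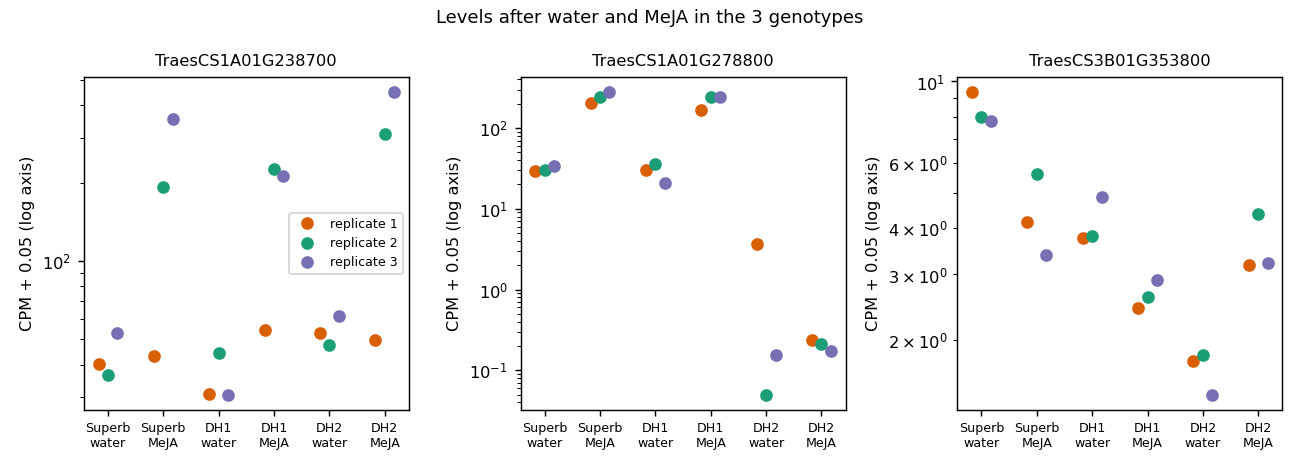
Levels (CPM plus 0.05, log axis) after water and MeJA in Superb, DH1 and DH2 for a gene that MeJA replicate 1 did not raise in Superb (left) and 2 genes whose response differed between Superb and DH2. In the left panel replicate 1 stays near the water level in all genotypes, and in the middle panel DH2 lies below 4 CPM throughout.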

How the data were processed

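The authors deposited raw gene counts in whole numbers, with a different total for each library. Libraries came from the TruSeq RNA v2 LT kit and were read from both ends, per the labels' protocols. The submitters' processing notes name STAR 2.5.3a, an aligner, and DESeq2, with no role for either. For counting, strand and reads with several matches, nothing is stated in those sources. The 110790 identifiers have the IWGSC v1.0 form.

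Genes that passed filterByExpr over 15 groups (63091 genes, 99.7% of counts) were scaled by TMM and fitted in all 45 libraries with edgeR 4.0.16 in R 4.3.3 (glmQLFit, legacy = FALSE, 30 residual degrees of freedom). Calls have a Benjamini-Hochberg adjusted p under 0.05 in glmQLFTest. A standard error is the size of the log2 fold change over the square root of F. For replicate 1 apart, that library was its own group. Levels are CPM computed here from tested genes with TMM factors, and for 0 counts in a group the limit is 3 counts over its libraries. Libraries of the same group differed by more than sampling noise, so each counted as 1 replicate. The chi-square per degree of freedom was 11.4 and 13.0 for the pairs with MeJA replicate 1, and 3.61 to 4.21 for the others. Such spread does not show that the libraries are biological replicates.

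Named genes were taken by rule. For MeJA against water these are, among 6548 calls of mean log2 CPM 1 or more that stood without each library in turn, the highest and lowest fold change and the largest gain and loss in CPM. For replicate 1 they are the most abundant raised and lowered genes within its water range, and for DH2 the extreme differences. Members, lists and rules were chosen with earlier results of these data known. In simulated data on 63091 genes, 200 changes were planted per comparison. For MeJA against water, 57% of 2-fold and 87% of 4-fold changes were recovered with 5 false calls of 149. For the difference from DH1, 33% and 70% were recovered with 5 false calls of 108. With MeJA replicate 1 set apart, the other MeJA libraries against water gave 47% and 80%, with 12 false calls of 139. These rates hold for the planted changes and are not the power over all tested genes. Alternatives were RLE factors, totals only, no filter, DESeq2 1.42.0, fewer libraries, each library left out, other thresholds and sets, and replicate blocks.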

Additional observations from a re-analysis of the deposited data

Results flagged for a closer look

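The response to MeJA differed between Superb and DH2 for 7 genes by edgeR's test of the difference, and for 0 between Superb and DH1. For TraesCS1A01G278800 the log2 fold change in Superb minus that in DH2 was 5.89, and for TraesCS3B01G353800 it was -2.07. Superb ethephon replicate 1, which is in no comparison made here, held 8.08% of its counts in the set raised by MeJA in both lines, above the 5.18% of the highest water library of Superb, while the other ethephon libraries stood at 4.93% and 4.75%.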

How the results depend on the processing

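MeJA against water in Superb gave 13931 calls. They numbered 7303 when changes had to reach 2-fold, 8932 at an adjusted p under 0.01 and 8771 in the 6 libraries with replicate number as a block, and ran from 9757 (without MeJA replicate 3) to 15227 (without MeJA replicate 1) with 1 library left out. RLE factors, totals only, no filter, DESeq2, the fit without Superb ethephon replicate 1, the 15 Superb libraries, the 6 libraries and the block over 45 libraries gave 9990 to 15838. No call changed direction in these fits. The next 2 ranges are for 1 library left out only, and other settings went beyond them. With totals only, replicates 2 and 3 gave 18291 calls. For replicates 2 and 3, 15232 calls became 9606 (without MeJA replicate 3) to 15227, and for replicate 1, 3504 became 2670 to 3419.

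For the difference from DH1, 0 calls became 1 with totals only and 11 with DESeq2, and stayed at 0 in the other fits. For the difference from DH2, 7 calls became 17 with DESeq2 and 4 to 10 with 1 library left out. The fewest came without MeJA replicate 3 or any one water library. The causes were not tested, though the fits with fewer samples have less information.

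The difference in the share of the raised set, 13.8 percentage points, was 8.90 for genes raised at least 4-fold in both lines and 12.03 to 16.4 with 1 library left out. For the lowered set, -3.32 points became -7.02 at any fold, -0.54 at 4-fold, both by the size of the set, and -2.62 without its 10 most abundant genes. With 1 library left out it ran from -3.54 to -3.19.

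Same-numbered MeJA and water libraries of Superb deviated with r = -0.14, -0.19 and 0.21 over 46300 genes, and only replicate 3 matched its own number best, so the numbers were not taken to pair them. These values set MeJA against water libraries, so they cannot show what MeJA libraries of the same number share between genotypes. With the block over 45 libraries the counts were 14969, 15430, 4446, 0 and 6 in the order above, and TraesCS1A01G278800 had an adjusted p of 0.0641. Library totals limit what is called at low levels.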
